A study of Mus musculus with 8 samples.

Results

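Small nucleolar RNAs (snoRNAs) and the genes named as their hosts were followed in RNA sequencing of newborn mouse calvaria, the bony vault of the skull. The members are all rows of the deposited count table whose mouse symbol begins with Snord, Snora or Snhg, or is Gas5, and whose counts over the 8 libraries sum to 40 or more. This rule gave 61 of 49315 gene IDs: 30 box C/D snoRNAs (Snord), 16 box H/ACA snoRNAs (Snora) and 15 host genes (Snhg genes and Gas5). The name host gene follows the symbol here. In the annotation used, Snhg7os, Snhg17, Snhg11, Snhg3 and Snhg20 held no whole Snord or Snora row. Of the 15, only Snhg6, Snhg12, Snhg18 and Snhg9 held a member snoRNA. The libraries came from female C57BL6 mice aged 2 to 3 days, 4 wild type (WT) and 4 with the genotype Girk3 knockout (Girk3-/-). Girk3 is the product of Kcnj9, a subunit of G protein-gated potassium channels, and the study's title concerns its global deletion and bone mass. The labels do not give the parental line of the knockout or a littermate pairing, and p-values measure the spread between these samples. A chi-square per gene for the difference between 2 libraries was 10.2 for wild-type replicates 1 and 2 and 9.30 for knockout replicates 2 and 3. It was 22.5 to 45.8 for the other pairs within a group. The tests treat the 4 libraries of a group as independent, and why these pairs were more alike was not tested. Library totals ran from 35392465 to 54290034 counts. Kcnj9 held 0 to 4 counts in wild-type and 2 to 9 counts in knockout libraries, so at this depth the targeted gene does not check the labels.

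SnoRNAs guide chemical changes to ribosomal RNA in the nucleolus. Box C/D snoRNAs direct methylation of ribose, and box H/ACA snoRNAs direct the change of uridine to pseudouridine. In mammals most are cut out of introns: the host gene is transcribed and spliced, the intron lariat is opened, and exonucleases trim it back to the snoRNA held in its protein particle. The exons of host genes such as Gas5 and the Snhg genes encode little or no protein, and their spliced RNA is often short-lived. A snoRNA and its host therefore start from 1 transcript but are then processed and degraded separately.

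The sequences of 8 snoRNAs show the elements that define the classes. Shown are the member called in the test, others with small p-values, Snord49a as the neighbour of Snord49b in the same host, and the member snoRNA with the most counts. They are GENCODE release M21 transcripts (GRCm38/mm10), printed 5′ to 3′ as DNA. Capitals mark the C box motif TGATGA where it lies in the first 25 bases, the D box motif CTGA in the last 20 bases, or the ACA motif in the last 8 bases. Snord123 lies at chr15:32241853-32241923 (minus strand), Snord104 at chr11:106500993-106501062 (plus), and Snord49b and Snord49a at chr11:62603079-62603150 and chr11:62603450-62603521 (plus). Snord88c lies at chr7:44249852-44249941 (plus). Of the box H/ACA snoRNAs, Snora34 lies at chr15:98519716-98519853, Snora21 at chr11:97781639-97781775 and Snora5c at chr11:6620319-6620454, all on the minus strand.
Snord123: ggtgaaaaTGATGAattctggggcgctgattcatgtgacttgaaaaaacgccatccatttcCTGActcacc
Snord104: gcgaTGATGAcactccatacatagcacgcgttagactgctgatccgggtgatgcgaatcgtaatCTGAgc
Snord49b: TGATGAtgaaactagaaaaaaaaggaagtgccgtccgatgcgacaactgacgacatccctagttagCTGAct
Snord49a: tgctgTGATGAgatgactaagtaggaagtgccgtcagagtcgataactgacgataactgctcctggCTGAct
Snord88c: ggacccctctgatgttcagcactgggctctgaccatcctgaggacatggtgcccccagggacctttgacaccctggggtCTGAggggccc
Snora34: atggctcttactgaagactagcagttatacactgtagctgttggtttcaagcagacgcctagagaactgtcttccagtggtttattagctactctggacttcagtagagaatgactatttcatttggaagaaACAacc
Snora21: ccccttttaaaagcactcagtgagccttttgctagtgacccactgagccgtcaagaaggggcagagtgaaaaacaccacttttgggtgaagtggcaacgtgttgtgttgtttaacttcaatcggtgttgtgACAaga
Snora5c: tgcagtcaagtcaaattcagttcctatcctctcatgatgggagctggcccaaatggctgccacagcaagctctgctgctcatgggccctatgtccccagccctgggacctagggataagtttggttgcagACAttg

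The motifs followed the symbols. TGATGA was found in the first 25 bases of 19 of 30 Snord members (63.3%) and of 0 of 16 Snora members, against 0.865% of all 141729 annotated transcripts. CTGA was found in the last 20 bases of 29 of 30 Snord members (96.7%) and 3 of 16 Snora members (18.8%), against 9.24% of all transcripts. ACA was found in the last 8 bases of all 16 Snora members and of 3 of 30 Snord members (10%), against 11.5% of all transcripts. Their reverse complements in the same windows were rare: that of the C box motif was in 0% of either class, that of the D box motif in 10% of Snord and 6.25% of Snora members, and that of ACA in 6.67% and 0%. Snord members were 64 to 110 bases long and Snora members 127 to 149, against 183 to 26093 exon bases in the host genes. Snord49a and Snord49b, which share a host, were identical over 70.7% of their aligned positions. Some members have near copies elsewhere: Snora21 and Snora5c matched another annotated snoRNA at 97.8% and 98.5% of positions and Snord88c matched Snord88a at 94.4%, so their counts are uncertain where reads fit both. Snord123 and Snora34 had no copy above 61.5% and 71.1%.

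Most snoRNA rows of the table held no counts. Of 141 Snord and Snora rows in the table, 46 reached 40 counts, 20 held 1 to 39 and 75 held 0 in every library. Zero counts allow up to 3 counts, at most 0.0848 CPM (counts scaled to equal library totals) in the smallest library, and this limit covers counting error only. Position in the annotation separated the rows. Of 61 snoRNAs whose bases all lie inside exons of other GENCODE genes, 54 (88.5%) held 0 counts. Of 69 with no such base, 20 (29.0%) held 0, and 17 of these 20 were copies of Snord116, which have only 4 distinct sequences among them. Reads that fit 2 genes or several places may be assigned or dropped by a read counter, and which was done is not stated in the labels or notes, so a row at 0 is not a measure of the snoRNA's level. Among the rows at 0 were the snoRNAs of the abundant host Gas5: Snord47, Snord78 and both rows of Snord80 held 0 counts while Gas5 held 86224. Likewise Snord22 in Snhg1, Snord50a and Snord50b in Snhg5, Snora24 in Snhg8 and Snora9 in Snhg15 were listed at 0. The members nearest to the limit were Snora5c (44 counts) and Snord66 (48) inside it, and Snora73a (38) and Snord17 (35) outside it. No host gene fell below it. A read in an intronic snoRNA row may come from the snoRNA or from unspliced host RNA, and the counts do not tell them apart.

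**Figure D1:**
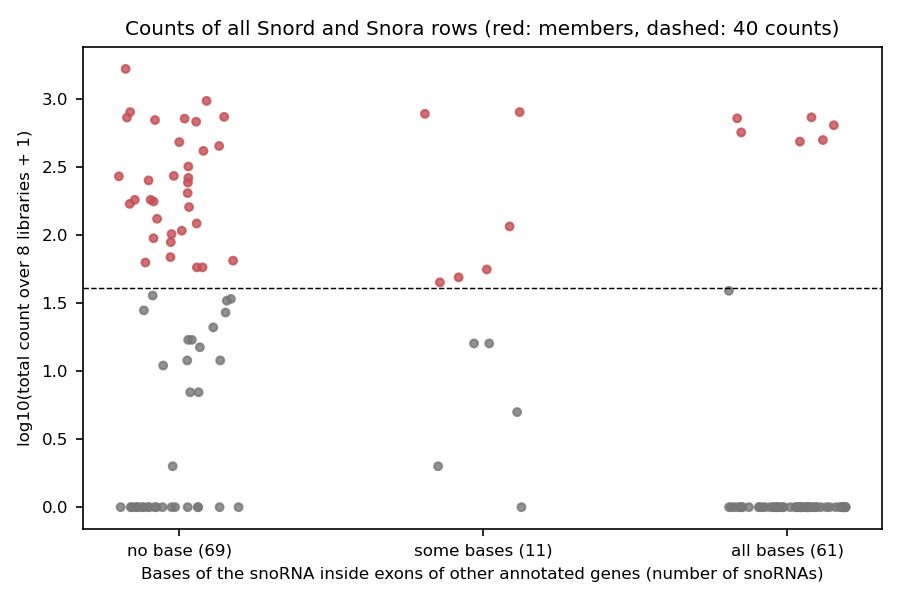
Total counts over the 8 libraries, as log10(count + 1), of all 141 Snord and Snora rows (points), by whether no, some or all bases of the snoRNA lie in exons of other annotated genes. Red points are members and the dashed line is 40 counts; 54 of the 61 fully covered rows sit at 0, against 20 of the 69 uncovered rows.

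Among the 46 member snoRNAs, 12 overlap an exon of another annotated gene, and their counts are less certain for the same reason. Snora33 and Snord100 lie wholly within annotated exons of Rps12, Snord19 and Snord69 within those of Gnl3, Snora28 within those of Eif5, and Snora16a within those of Snhg12. Snora34 shares 66.7% of its bases with the microRNA gene Mir1291, Snora5c 93.4% with an exon of Tbrg4 and Snora43 91.4% with a second Snora43 row that held 0 counts. Snord123, Snord88c, Snord49b and Snora21 overlap no exon of another gene.

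Levels were compared per length of exon, without correction for fragments longer than the RNA. Exon length joins the exons of all annotated transcripts of a gene. In Snhg12, Snhg1 and Snhg8 (2402, 2969 and 853 bases) it equals the whole gene, and in Gas5 (3760 bases) most of it. Host levels per kb may therefore be too low for the spliced RNA, and their ranks against snoRNAs are uncertain. Other small RNAs held few counts: in wild type Rn7sk (7SK RNA) was at 1.01 ± 0.178 CPM and Rpph1 (RNase P RNA) at 0.337 ± 0.0749 CPM. How fully the libraries held mature small RNAs was not tested. The values therefore rank counts, not the abundance of mature snoRNAs. By this measure the highest wild-type levels were those of Snord104, at 61.4 ± 6.82 CPM per kb, and Gas5, at 60.3 ± 5.68 CPM per kb (mean ± SD, n = 4 each). They did not differ beyond their spread. Snhg18, the host of Snord123, stood next at 53.3 ± 4.80 CPM per kb. Snord72, in an intron of the ribosomal protein gene Rpl37, followed among snoRNAs at 33.4 ± 4.62 CPM per kb, and Snord100 at 28.6 ± 7.19; these overlap in their spread. Snord123 itself stood at 20.5 ± 2.81 CPM per kb. Among the box H/ACA snoRNAs the leading levels were close together, with Snora41 at 16.3 ± 2.56, Snora31 at 15.4 ± 2.83, Snora17 at 14.3 ± 2.2 and Snora43 at 14.3 ± 2.11 CPM per kb. Snora33, Snora57 and Snora34 followed at 13.2 ± 1.89, 11.7 ± 1.83 and 10.8 ± 1.99 CPM per kb. Among host genes Snhg8, Snhg5, Snhg1 and Snhg6 ranged from 21.9 to 29.7 CPM per kb, and Snhg14, the long host of the Snord116 copies, was at 0.148 ± 0.0394.

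Between the genotypes, 1 member passed the test across all genes: Snord123 rose 2.06-fold in knockout. No member fell. Tests were made with edgeR's quasi-likelihood method on all 19944 genes with 40 or more counts, adjusted over all of them, and 1.12% of those genes were called (0.346% higher and 0.772% lower in knockout). The share of members called, 1 of 61, is near that background. At an unadjusted p under 0.05 there were 11 members (10 higher, 1 lower), against 16.4% of all genes (7.60% higher, 8.83% lower). In 8 members every knockout library lay above every wild-type library, against 4.26% of all genes, and in 2 every knockout library lay below, against 5.84%. Among the 8, Snord88c (68 counts) and Snora5c (44) reached the limit of 40 mainly through their knockout counts. Their place among the members therefore depends on the group in which they are high. DESeq2 called 4 members (Snord123, Snora34, Snhg12 and Snhg17), all higher in knockout, beside 940 of 15670 genes with an adjusted p. By limma-voom 0 members were called, against 0.747% of all genes. At an unadjusted p under 0.05 limma-voom had 12 of 61 members, beside the 11 of edgeR, and its share over all genes at that p was not computed. With edgeR's own count filter the background was 1.32% and Snord123 was again the 1 member called, of 52 tested.

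**Figure D2:**
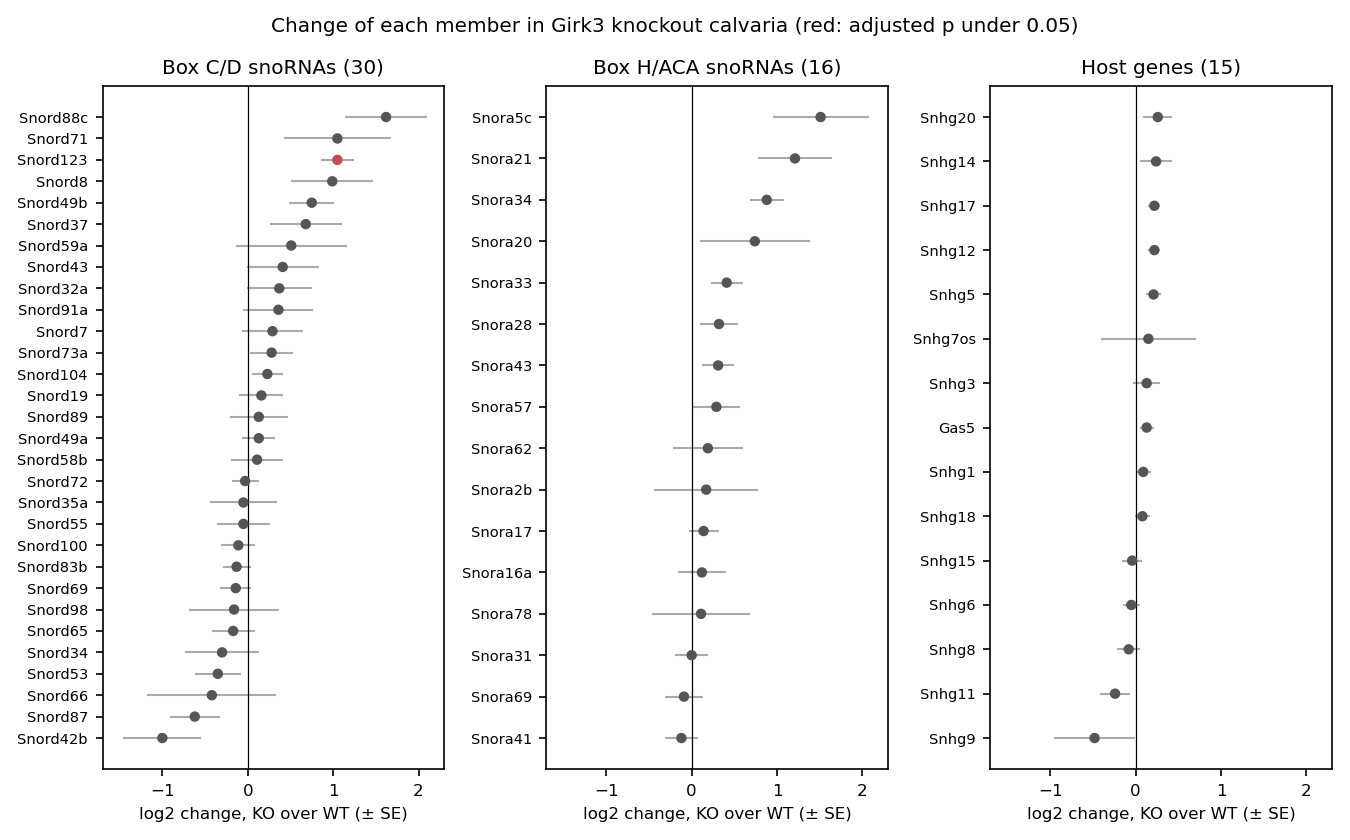
Log2 change of each member in knockout over wild type (points, bars ± SE of the edgeR fit), in 3 panels for 30 box C/D snoRNAs, 16 box H/ACA snoRNAs and 15 host genes. Snord123 (red) is the only member with an adjusted p under 0.05 in this fit; the snoRNAs span -1.0 to 1.62, the host genes -0.48 to 0.26.

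Snord123 (ENSMUSG00000089317) lies in an intron of Snhg18, on the same strand. The wild-type libraries, replicates 1 to 4, held 1.55, 1.35, 1.23 and 1.68 CPM, and the knockout libraries 3.33, 2.23, 3.00 and 3.48 CPM. Every knockout library lay above the highest wild-type library, and replicate 2 was the lowest of the knockout group. The log2 change was 1.05 ± 0.191 (SE, adjusted p = 0.0242). Removing wild-type replicate 2, 3 or 4, or knockout replicate 1 or 3, took the adjusted p to between 0.0541 and 0.0902, above the threshold of 0.05, while the log2 change stayed between 0.98 and 1.18 whichever library was left out. Without the 3 libraries low in skeletal muscle RNA (wild-type replicate 3, knockout replicates 2 and 3) it was 1.17 (adjusted p = 0.201).

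Snhg18 (ENSMUSG00000096956, chromosome 15 from 32240565 to 32244662, minus strand) did not pass the test. It held 84.6, 83.8, 79.5 and 69.1 CPM in the wild-type libraries and 81.6, 87.2, 92.2 and 73.2 CPM in the knockout libraries, and the groups overlapped. Its log2 change was 0.08 ± 0.0887 (SE, adjusted p = 0.71). Set against its host in each library, Snord123 gave 18.3, 16.1, 15.5 and 24.3 reads per 1000 Snhg18 reads in wild type and 40.8, 25.6, 32.6 and 47.5 in knockout. The ratio was 1.95 times as high in knockout, with no overlap of the groups (log2 difference 0.96, exact permutation p = 0.0286, two-sided, the smallest that 4 against 4 libraries allow). Adjusted over the 4 host genes tested this way it was 0.114, which does not pass.

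The other 3 ratios did not pass either. Snord87, which guides methylation of the large ribosomal RNA, gave 24.1 ± 6.50 reads per 1000 reads of its host Snhg6 in wild type against 15.9 ± 2.03 in the knockout libraries (SD, n = 4 each, exact permutation p = 0.0571, adjusted 0.114). Snora16a gave 53.2 ± 4.55 per 1000 reads of Snhg12 in wild type against 49.6 ± 19.0 in knockout (exact permutation p = 0.657, adjusted 0.657), a wide spread in the knockout group that ran from 27.4 to 66.3. For Snora78 in Snhg9, a pair in which host and snoRNA had similar totals (79 and 64 counts), the values were 766 ± 426 and 1015 ± 511 (exact permutation p = 0.429, adjusted 0.571).

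Several other snoRNAs separated the groups without passing the test. Snora34, a box H/ACA snoRNA in an intron of Kansl2, which encodes a subunit of a histone acetyltransferase complex, came nearest. It held 1.89, 1.30, 1.48 and 1.31 CPM in the wild-type group and 2.55, 2.98, 3.34 and 2.13 CPM in the knockout group, with no overlap (log2 change 0.88 ± 0.2, SE, adjusted p = 0.0573). It passed with DESeq2 (adjusted p = 0.00288), without a count filter (0.0391), without wild-type replicate 1 (0.0388) and without knockout replicate 4 (0.0259); over all settings its adjusted p ran up to 0.561, without the 3 libraries low in muscle RNA. Kansl2 ran from 55.2 to 58.5 CPM in wild type, against 53.9 to 63.1 CPM in knockout (log2 change 0.04 ± 0.0709). Snora2b, a second member in Kansl2, was at 0.17 ± 0.609 (SE).

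Snord88c, in an intron of 2410002F23Rik, held 5, 5, 2 and 4 counts in wild type and 12, 16, 15 and 9 in knockout. The counts are small but the groups did not overlap (log2 change 1.62 ± 0.475, SE, adjusted p = 0.131). Its host ran from 90.0 to 95.3 CPM in wild type, against 99.1 to 112 CPM in knockout, also without overlap, with a log2 change of 0.16 ± 0.0647 (adjusted p = 0.24). Snora21, which guides pseudouridine in the large ribosomal RNA and lies in the ribosomal protein gene Rpl23, held 8, 6, 11 and 5 counts in wild type and 24, 16, 13 and 18 in knockout (log2 change 1.21 ± 0.436, adjusted p = 0.202). Rpl23 was at -0.03 ± 0.105 on the log2 scale. Snora5c held 3, 3, 1 and 4 counts in wild type, around the floor of 3 counts, and 10, 8, 9 and 6 in knockout (log2 change 1.51 ± 0.562, adjusted p = 0.212), and its host Tbrg4 was at -0.08 ± 0.068.

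The host 2410006H16Rik, a non-coding gene, carries 3 members. Snord49b held 0.494, 0.483, 0.560 and 0.684 CPM in the wild-type libraries against 0.843, 0.745, 1.24 and 0.916 CPM in the knockout libraries, with no overlap (log2 change 0.75 ± 0.262, SE, adjusted p = 0.191). Snord49a and Snord65 from the same transcript were at 0.13 ± 0.192 and -0.17 ± 0.251, and their groups overlapped. The host was at -0.01 ± 0.0914. Whether Snord49b differed from the other two was not tested.

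In the other direction stood Snord42b, a methylation guide for the small ribosomal RNA in Rpl23a, and Snord87. Snord42b held 16, 18, 20 and 21 counts in wild type and 14, 18, 4 and 4 in knockout, and in CPM the knockout libraries all lay below (log2 change -1.0 ± 0.457, SE, adjusted p = 0.303). Knockout replicates 3 and 4 were far below replicates 1 and 2. Snord87 averaged 0.591 ± 0.0877 CPM against 0.386 ± 0.0555 CPM (wild type, then knockout, SD, n = 4 each), also with no overlap (log2 change -0.62 ± 0.292, adjusted p = 0.314).

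**Figure D3:**
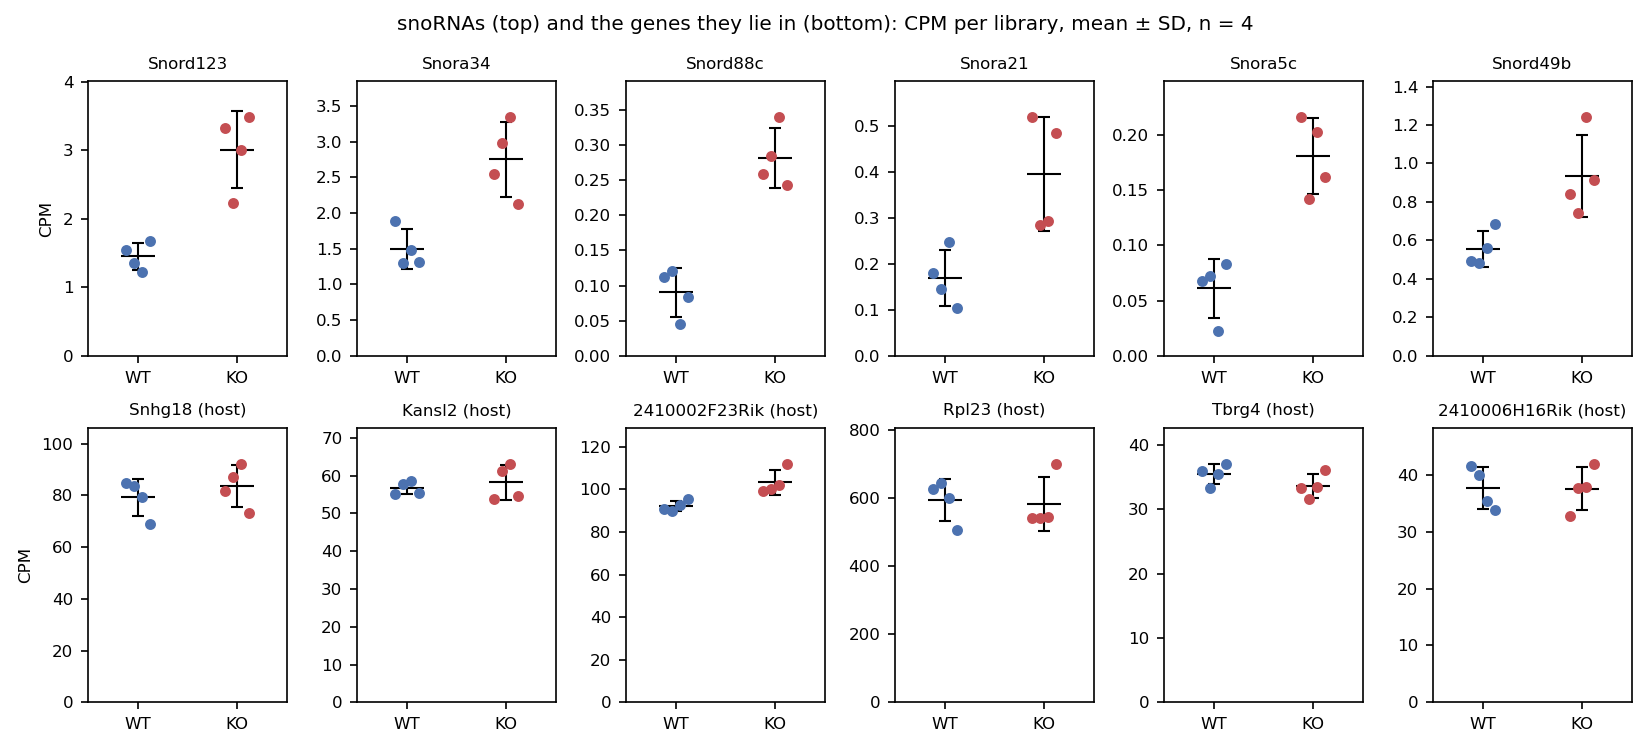
CPM in each library (points) with the mean ± SD (n = 4 a group) for 6 snoRNAs in the top row and the gene each lies in below it. The 6 shown are the member snoRNAs in which every knockout library lay above every wild-type library, so their separation is fixed by this choice. Snord42b and Snord87, which separated the other way, are not shown. Of the 6 hosts, which were not chosen by their values, only 2410002F23Rik shows the same separation.

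Of the other snoRNAs with many counts, none passed the test. Snord104, with the most, averaged 4.30 ± 0.477 CPM in wild type, against 5.06 ± 1.45 CPM for the knockout group (SD, n = 4 each; log2 change 0.23 ± 0.184, SE), with 7.20 CPM in knockout replicate 4 against 4.13 to 4.76 in the other knockout libraries; without that library the log2 change was 0.03. Snord72 was at -0.03 ± 0.158, Snord100 at -0.11 ± 0.2, Snora41 at -0.12 ± 0.19 and Snora31 at -0.00 ± 0.193 on the log2 scale. Snora33 and Snora43 were at 0.41 ± 0.186 and 0.31 ± 0.185 (adjusted p = 0.303 and 0.426), the latter at 0.18 without knockout replicate 4. Without 1 library, Snora41 ran from -0.22 to -0.03. Spread was wider at low counts: the median absolute log2 change was 0.15 for the 26 snoRNAs with 200 or more counts and 0.47 for the 20 with fewer. Among the latter, Snord71 in the adaptor gene Ap1g1 held 4, 2, 3 and 9 counts in wild type against 19, 10, 7 and 3 in knockout (log2 change 1.05 ± 0.628, SE, adjusted p = 0.429). Snord8, in the chromatin remodeller gene Chd8, held 9, 8, 7 and 15 against 15, 29, 32 and 6 (0.99 ± 0.478, adjusted p = 0.323). Snord37, in the elongation factor gene Eef2, held 15, 14, 10 and 10 against 16, 23, 34 and 9 (0.68 ± 0.424, adjusted p = 0.453). In all 3 the fourth knockout library lay within or below the wild-type range, so the groups overlapped.

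Of the 46 snoRNAs, 42 lay on the same strand within an annotated gene, 32 of them in introns and 10 overlapping an exon, in 34 host genes. Ribosomal protein genes were 11 of these hosts and carried 15 of the snoRNAs. No host was called (smallest adjusted p = 0.133, for Rpl39 at -0.41; 3 hosts at an unadjusted p under 0.05). The log2 change of the snoRNA was larger than that of its host in 29 of 42 cases, and the median difference was 0.20. The hosts are far more deeply counted, with a median total of 78681 against 257 for snoRNAs, and their median absolute log2 change was 0.10 against 0.29 for the 42 snoRNAs. The highest host value, 0.40 ± 0.341 for the ribosomal protein gene Rpl13a, rested on 1 library: knockout replicate 4 held 448 CPM, against 173 to 187 CPM in the other knockout libraries and 157 to 207 CPM in wild type. Rpl13a holds Snord32a, Snord34 and Snord35a, at 0.37, -0.30 and -0.05, all below their host. Members of 1 host share their source, so no test was made over these pairs.

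**Figure D4:**
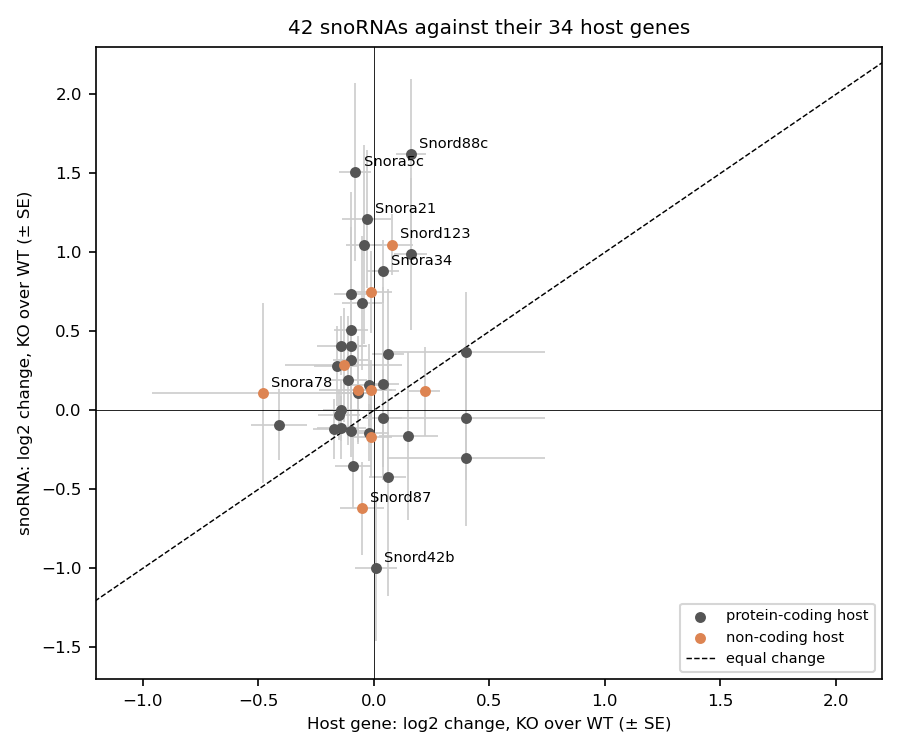
Log2 change in knockout over wild type of 42 snoRNAs (vertical axis) against that of the gene each lies in (horizontal axis), bars ± SE, dashed line at equal change. Host values lie between -0.48 and 0.40 while snoRNA values run from -1.0 to 1.62, and 29 points lie above the line; the host value of 0.40 is Rpl13a, set by knockout replicate 4.

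None of the 15 host genes among the members was called in edgeR (3 at an unadjusted p under 0.05, against 16.4% of all genes). DESeq2 called 2, beside 940 of 15670 genes, and limma-voom 0. Snhg12 held 25.5, 24.3, 25.1 and 23.0 CPM in wild type against 27.6, 28.1, 30.5 and 27.6 CPM in knockout, and Snhg17 held 32.7, 36.2, 36.1 and 34.3 CPM against 39.5, 40.4, 44.7 and 38.0 CPM. In both the groups did not overlap. Their log2 changes were 0.22 ± 0.0687 and 0.22 ± 0.0712 (SE, adjusted p = 0.155 and 0.158 in edgeR, 0.0441 and 0.0474 in DESeq2). Snhg5 was at 0.21 ± 0.0838 (adjusted p = 0.245), with 52.0 CPM in the lowest knockout library and 52.4 in the highest wild-type library. Gas5, named for its rise in growth-arrested cells, held 243, 238, 229 and 196 CPM in wild type against 233, 262, 257 and 241 CPM in knockout, which overlap (log2 change 0.13 ± 0.0814, adjusted p = 0.445; 0.07 without wild-type replicate 4). Snhg20 was at 0.26 ± 0.168, Snhg6 at -0.05 ± 0.0965, Snhg8 at -0.08 ± 0.135 and Snhg9 at -0.48 ± 0.478. Single libraries moved these values: without knockout replicate 4 Snhg20 was at 0.07 and Snhg8 at -0.24, and Snhg8 was at -0.01 without knockout replicate 1 or 2. Snhg6 ran from -0.14 without wild-type replicate 4 to -0.00 without wild-type replicate 2. Snhg9, with 79 counts in all, ran from -0.80 without knockout replicate 3 to -0.18 without wild-type replicate 1. Snhg11, a gene best known from neurons and described after its values were seen, held 9.91 CPM in wild-type replicate 1 and 5.02 to 6.79 CPM in the others. The summed level of 6 neuron and glia markers was also highest in that library, at 46.4 CPM against 18.7 to 31.8 CPM; their part in the Snhg11 value was not tested.

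The protein partners of snoRNAs did not pass the test. Of the 4 core proteins of box C/D particles, Fbl, the methyltransferase fibrillarin, was at -0.03 ± 0.0832, Nop56 at 0.13 ± 0.069, Nop58 at -0.01 ± 0.0991 and Snu13 at -0.17 ± 0.0696 on the log2 scale (SE, adjusted p = 0.265 or more). Of the 4 core proteins of box H/ACA particles, Dkc1, the pseudouridine synthase dyskerin, was at 0.15 ± 0.0938, and Nhp2, Nop10 and Gar1 at -0.01, -0.10 and 0.03 (adjusted p = 0.441 or more). In edgeR none of 12 assembly factor genes was called (3 at an unadjusted p under 0.05), nor any of 24 genes of the U3 processome (5), 16 of RNA polymerase I and the nucleolus (2), 17 of the exosome and trimming (3) or 14 of nonsense-mediated decay (3). Over all genes 16.4% had such a p (7.60% higher, 8.83% lower) and 1.12% were called. All 5 U3 processome genes were lower in knockout and all 3 decay genes higher, while the other lists counted this way went in both directions. Above 0 were 2 of 12 assembly factors, 8 of 24 processome genes and 11 of 14 decay genes. So were 8 of 16 genes of RNA polymerase I and the nucleolus and 10 of 17 of the exosome and trimming. Of the core proteins, 1 of 4 for box C/D and 2 of 4 for box H/ACA were above 0. Over all genes the share was 50.1%, and among protein-coding genes 6894 of 15547 were above 0. The lowest adjusted p of these lists belonged to Naf1, an assembly factor of box H/ACA particles, with 17.3 ± 0.819 CPM in the wild-type group against 13.5 ± 0.971 CPM in the knockout group (SD, n = 4 each; log2 change -0.36 ± 0.0814, adjusted p = 0.0588). Medians of these lists ran from -0.10 for assembly factors to 0.08 for decay factors, against 0.00 over all genes. Of 22 other small non-coding RNAs, 8 had enough counts and none was called; the 7SK RNA gene Rn7sk was at -0.06 ± 0.369 and the RNase P RNA gene Rpph1 at -0.00 ± 0.48.

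The median change of the members lay slightly above 0, as did that of other non-coding genes, while that of the genes holding the snoRNAs did not. The median log2 change was 0.13 for Snord, 0.24 for Snora and 0.13 for the 15 Snhg and Gas5 genes, against 0.00 over all genes tested, and 40 of 61 members were above 0, against 50.1% of all genes. Of 20 snoRNAs with under 200 counts 15 were above 0, against 15 of 26 with 200 or more. Near the limit of 40, a row can become a member through the group in which it is high. Over the 46 snoRNAs the median was 0.17. The 34 genes that hold member snoRNAs, most of them protein-coding, had a median of -0.06, with 11 above 0 and 23 below. The median was 0.16 for 762 lincRNA genes, 0.20 for 375 processed transcripts, 0.27 for 926 antisense genes and 0.36 for 55 small nuclear RNA genes, against -0.02 for 15547 protein-coding genes. Without the 3 libraries low in muscle RNA the snoRNA median was 0.04, over fewer snoRNAs (53 of the 61 members, host genes included, were still tested). Summed over the 30 Snord members, wild-type libraries held 27.8, 30.2, 26.5 and 27.0 CPM and knockout libraries 29.4, 30.4, 32.9 and 30.7 CPM, which overlap. The 16 Snora members summed to 19.3, 17.1, 17.0 and 15.4 CPM in wild type against 19.7, 20.1, 21.5 and 21.9 CPM in knockout, which do not overlap. That separation depends on Snora34, which alone gave 1.89 CPM of the sum in wild-type replicate 1 and 2.55 CPM in knockout replicate 1. Gene models that are intronic or unconfirmed also took more of the counts, 0.105 ± 0.0118% in knockout libraries against 0.0812 ± 0.00321% in wild type (SD, n = 4 each, no overlap), and their part in the snoRNA values was not tested.

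**Figure D5:**
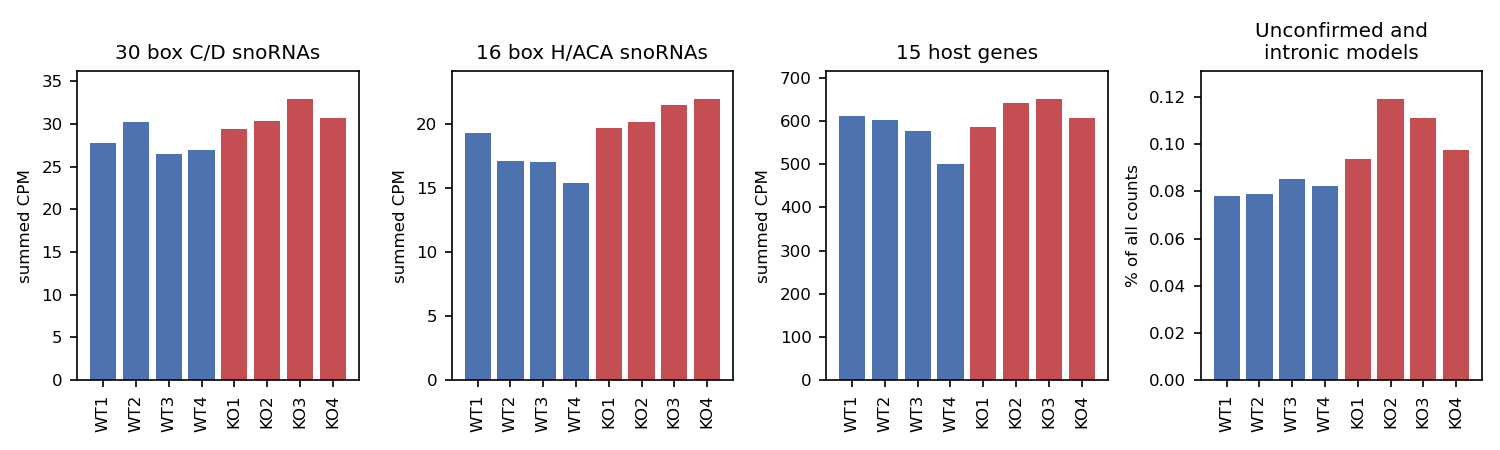
Summed CPM of the 30 Snord members, the 16 Snora members and the 15 host genes, and the percentage of counts taken by intronic or unconfirmed gene models, in each library (bars, 4 wild type in blue and 4 knockout in red, axes from 0). The Snora sums and the model percentages of the knockout libraries lie above those of wild type, while the Snord and host sums overlap. For Snora the nearest libraries held 19.3 CPM (wild type) and 19.7 CPM (knockout), a separation that depends on Snora34.

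Osteoblast markers were present in both groups: Sp7, a transcription factor of the lineage, held 448 ± 18.9 CPM in wild type against 485 ± 27.0 CPM in knockout libraries, and Ibsp, which encodes bone sialoprotein, 2975 ± 346 against 2496 ± 276 CPM (SD, n = 4 each). Of the 6 markers, 1 was called: Bglap, which encodes osteocalcin, fell by 0.49 on the log2 scale (adjusted p = 0.0405), and its part in the snoRNA values was not tested. Skeletal muscle markers ran from 13.0 to 2478 CPM and were lowest in wild-type replicate 3 and knockout replicates 2 and 3. Macrophage markers summed to 454 to 611 CPM in wild type, against 334 to 403 CPM in knockout, without overlap, and their part in the snoRNA values was not tested. All 5 were lower in knockout and 2 were called, against 0.772% of all genes: Lyz2 (log2 change -0.90, adjusted p = 0.000448) and Ctss (-0.79, adjusted p = 0.0139). Of 6 neuron and glia markers, 4 below and 2 above 0, Mbp was called (-0.75, adjusted p = 0.0159). In bulk tissue, fewer cells of a type and less RNA per cell cannot be told apart.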

How the data were processed

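RNA from calvaria was sequenced with the NEBNext Ultra II RNA kit, per the labels' protocols. The authors deposited raw counts per gene ID. The submitters' processing notes name bcl2fastq 2.17, STAR 2.5.2b, featureCounts, Subread 1.5.2 and build mm10. For the annotation release, the strand setting and reads that fit several genes, nothing is stated there. Library totals ran from 35392465 to 54290034 counts.

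Symbols were matched for 49056 of 49315 IDs. Positions, gene types and sequences came from GENCODE M21 (GRCm38/mm10), and motifs and hosts were found in it. Genes with 40 or more counts over 8 libraries were kept (19944), the same limit as for members, so all 61 were tested; filterByExpr would have kept 52. edgeR 4.0.16 (TMM factors 0.970 to 1.05, robust quasi-likelihood test, two-sided, Benjamini-Hochberg, threshold 0.05) compared 4 knockout with 4 wild-type libraries. The SE is the log2 change over the square root of F. CPM used library totals times TMM factors. Tested on simulated counts for 19618 genes, edgeR found 34 of 81 genes with a 1.5-fold change, 40 of 56 with 2-fold and 59 of 63 with 4-fold, beside 11 false calls. The changed genes were drawn from all genes tested, with a median total of 3438, against 257 for member snoRNAs. Libraries were simulated as independent. Recovery at the counts of the snoRNAs was therefore not measured. Alternatives were DESeq2 1.42.0, limma-voom (limma 3.58.1), other scalings and filters, a replicate block and leaving out libraries.

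A host is the gene on the same strand that spans the snoRNA and is not a small RNA; of several, the one with most counts. Named members were those called, the 5 of smallest p and the 4 of highest level per length in each class, the Snhg genes that hold member snoRNAs, and those nearest to 40 counts; others named are hosts, or were added after their values were seen. The members and lists were chosen with earlier results of these data known. No sample was left out of the main comparison.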

Additional observations from a re-analysis of the deposited data

Results flagged for a closer look

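In groups of 4 libraries, 5 of 62 examined had 1 library well apart from the rest, and about 3.10 would be so by chance. The 62 did not cover every member, so this is not a count over all members. Snhg20 was at 22.2 CPM in knockout replicate 4, against 13.2 to 14.3 CPM in the other knockout libraries. Snhg8 was at 32.2 CPM in the same library, against 20.7 to 21.7, and Snora43 at 3.18 CPM, against 2.21 to 2.28. In wild-type replicate 1, Snhg9 was at 0.404 CPM, against 0.193 to 0.224, and Snord42b at 0.360 CPM, against 0.435 to 0.448.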

How the results depend on the processing

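The number of members higher in knockout was 1 in the main test and stayed 1 with RLE factors, library totals, filterByExpr and the replicate block. Over all genes the main test called 223. The number of members was 2 without a filter, where 355 of 33648 genes were called. It was 4 with DESeq2 (39 of 61 members had an adjusted p), where 940 genes were called. With limma-voom it was 0, beside 149 genes called. It was also 0 without the 3 libraries low in muscle RNA, where 8 genes in all were called and 53 members tested. Leaving out 1 library gave 0 to 2, while the genes called in all ran from 52 (without knockout replicate 2) to 571 (without knockout replicate 4). No setting called a member lower. Snord123 kept a log2 change of 0.98 to 1.18 in all settings, with adjusted p from 0.000124 to 0.201; with limma-voom it was 1.00 (adjusted p = 0.0522). The snoRNA median was 0.04 without the libraries low in muscle RNA and 0.13 to 0.22 in the other settings, and the host median 0.04 to 0.19; replicates varied by an SD of 0.0872 and 0.110. Library totals moved the median of all genes by 0.06. The Snhg18 ratio difference ran from 0.83 to 1.12 without 1 library, where exact p cannot go below 0.0571, and was 0.96 with the replicate block as paired differences (sign-flip p = 0.125, the smallest possible). The Snhg12 ratio difference, -0.19, ran from -0.36 to 0.07 when 1 library was left out, above 0 only without knockout replicate 1. Small changes turned sign: leaving out 1 library, Snora31 ran from -0.09 to 0.11, Snord72 from -0.10 to 0.04 and Snord100 from -0.23 to 0.00. Snora31 was also 0.01, 0.05, 0.00, 0.01 and 0.02 with RLE factors, library totals, filterByExpr, DESeq2 and limma-voom. With library totals Snhg6 was 0.01 and Snord72 0.03. Without the libraries low in muscle RNA, Snhg18, Snhg6, Snhg8 and Snora31 were -0.01, 0.03, 0.08 and 0.05. The causes were not tested. Deviations of same-numbered libraries correlated at 0.255, -0.179, 0.340 and -0.00494. Of the wild-type libraries, 0 correlated best with the knockout library of their own number. These values gave no sign that replicate numbers pair the samples, but they cannot exclude a pairing.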
